A study of Homo sapiens with 4 samples.

Results

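The genes described here build and load MHC class I molecules. They were taken by name from the deposited table: the heavy chain genes HLA-B, HLA-C, HLA-E and HLA-F, the light chain gene B2M, the peptide transporter genes TAP1 and TAP2, the tapasin gene TAPBP and the transactivator gene NLRC5. All 9 were found among the 20329 genes used, and all 9 passed the filter on low values (1 FPKM or more on average), which left 13928 genes for testing. FPKM counts fragments per length of transcript and scales them to the size of the library, so levels of different genes can be set side by side per length.

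The series concerns splicing controlled by hnRNPM, an RNA-binding protein of the nucleus, together with ESRP1 in the epithelial-mesenchymal transition. Polyadenylated RNA was sequenced, stranded and from both fragment ends, in 4 libraries. The cells were BM1 (1833) and LM2 (4175), which the labels call bone and lung metastasis derivatives of MDA-MB-231, a triple-negative human breast cancer line. Each line gave 1 library of cells stably carrying a non-specific shRNA (control) and 1 library of cells stably carrying an shRNA against hnRNPM (knockdown). All cells, controls included, had thus been infected with a lentiviral shRNA vector and were grown in DMEM with serum. How many hnRNPM shRNAs were used, whether the cells were pools or clones, and whether the libraries stand for separate cultures are points these sources do not state. With 1 library per line and treatment, p-values rest on the spread between these libraries, pooled in large part over all tested genes. They do not measure the spread between replicate cultures.

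Class I molecules show peptides from inside a cell to CD8+ T cells and to natural killer cells. Proteasomes cut proteins into peptides, the TAP1-TAP2 transporter carries these into the endoplasmic reticulum, and tapasin holds an empty heavy chain with beta-2-microglobulin next to the transporter until a peptide binds. In most cells the promoters of these genes respond to interferons, through sites for interferon regulatory factors (IRF), NF-kappaB and a module bound by RFX, CREB/ATF and NF-Y proteins, on which NLRC5 acts.

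The proximal promoters are shown because these elements are what the genes share in sequence. RefSeq (GRCh38.p14) gave promoters for 7 of the 9 genes, all but HLA-E and NLRC5, each window running from 250 bases before to 50 bases after the start. Capitals mark an IRF core (AANNGAAA), TGACG (the core of a CREB/ATF site) and CCAAT (the NF-Y site), on either strand, so that ATTGG is CCAAT read from the other strand. In HLA-B (minus strand, chr6:31357219-31357346), HLA-C (minus strand, chr6:31272132-31272255), HLA-F (plus strand, chr6:29723266-29723393) and B2M (plus strand, chr15:44711363-44711484), the IRF core lies farther from the start than the other motifs shown.
HLA-B: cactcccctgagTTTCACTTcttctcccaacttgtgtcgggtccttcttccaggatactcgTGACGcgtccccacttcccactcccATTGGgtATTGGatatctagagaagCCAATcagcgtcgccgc
HLA-C: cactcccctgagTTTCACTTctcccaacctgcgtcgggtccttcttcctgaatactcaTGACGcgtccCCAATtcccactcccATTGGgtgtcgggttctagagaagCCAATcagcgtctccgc
HLA-F: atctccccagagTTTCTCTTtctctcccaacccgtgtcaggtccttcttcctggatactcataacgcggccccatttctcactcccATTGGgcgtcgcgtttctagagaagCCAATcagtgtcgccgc
B2M: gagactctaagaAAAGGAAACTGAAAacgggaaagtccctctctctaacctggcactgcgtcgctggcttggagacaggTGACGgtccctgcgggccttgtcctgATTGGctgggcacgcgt

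In the transporter and tapasin genes, as in B2M above, a pair of IRF cores stands in tandem, 6 bases apart and overlapping. These stretches come from TAP1 (minus strand, chr6:32853813-32853850), TAP2 (minus strand, chr6:32838776-32838813) and TAPBP (minus strand, chr6:33314079-33314108).
TAP1: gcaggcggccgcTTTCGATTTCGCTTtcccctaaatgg
TAP2: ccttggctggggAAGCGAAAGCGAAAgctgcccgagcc
TAPBP: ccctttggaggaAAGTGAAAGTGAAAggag

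An IRF core was found in the promoters of all 7 genes and in 22.8% of 35116 RefSeq promoters of the same length. A second core was found in 4 of the 7 (B2M, TAP1, TAP2 and TAPBP) and in 5.66% of all promoters. TGACG was found in HLA-B, HLA-C, B2M and TAP2, against 24.6% of all promoters, and CCAAT in 5 of the 7 genes, against 34.6%. An NF-kappaB consensus was found in 5 of the 7 genes and in 11.3% of all promoters. A match of letters describes the sequence and is not a measured binding site. No reads of factor binding belong to these data. TAP1 has a second listed start, whose promoter holds no IRF core.

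The labelled cell type was checked against markers. VIM, CD44, KRT8, KRT18 and EGFR were present in all 4 libraries, with a summed level between 2448 and 3445 FPKM. Limma called 1 of these 5 for the knockdown, KRT8, where 5.47% of all tested genes were called. KRT8 had 398 and 1181 FPKM (control, knockdown) in BM1 and 485 and 1083 in LM2 (1.36 ± 0.26, log2, SE, limma adjusted p 0.0253). VIM, not called, had 2354 and 1160 FPKM in BM1 and 1575 and 1795 in LM2. No gene was called without the filter or with quantile normalization. Of 7 leukocyte markers, only CD14 was listed in the table, at 1.47 to 7.09 FPKM and highest in the LM2 knockdown library. PTPRC, CD3E, MS4A1, LYZ and NKG7 were among those not listed. ERBB2, expected low in this line, was at 13.5 to 21.9 FPKM, between the percentiles 73.9 and 82.1 of all genes used. It was thus not low by rank. ESR1 and PGR were not listed. Of 3 endothelial markers, only VWF was listed, at 0.163 FPKM or less. Of 4 fibroblast markers 3 were listed, and their sum was higher in the knockdowns, at 3.95 against 1.57 FPKM in BM1 and 4.56 against 0.730 FPKM in LM2. Most of it was PDGFRB (1.02 ± 0.26, log2, SE, limma unadjusted p 0.00355, adjusted p 0.0568). LUM was at 0.465 and 1.61 FPKM in the BM1 and LM2 knockdowns and under 0.03 FPKM in both controls. The part of these markers in the knockdown results was not tested. The targeted gene HNRNPM had 171 FPKM with the control shRNA and 28.4 with the hnRNPM shRNA in BM1, and 132 and 20.3 in LM2, and it fell by 2.59 ± 0.25 (log2, SE, limma, adjusted p 0.00318). The step structure of the low values puts the depth at 22800000 to 41500000 fragments, lowest in the BM1 knockdown and highest in the LM2 control library. Mitochondrial transcripts took 8.80% and 9.31% of the FPKM sum in the controls and 11.8% and 12.8% in the knockdowns, and the part of this shift in any result here was not tested.

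On GRCh37, the build named in the submitters' processing notes, 7 of the 9 genes lie on chromosome 6: HLA-F (chr6:29690552-29706305), HLA-E (chr6:30457244-30461982), HLA-C (chr6:31236526-31239907), HLA-B (chr6:31321649-31324965), TAP2 (chr6:32789610-32806557), TAP1 (chr6:32812986-32821755) and TAPBP (chr6:33267471-33282164). B2M lies at chr15:45003675-45011075 and NLRC5 at chr16:57023397-57117443. These are the spans of whole genes, exons and introns together.

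The order of levels was nearly the same in every library. B2M stood first, at the 99.2th percentile or above of all genes used, before the filter on low values, in each library. HLA-B came next, then HLA-E and HLA-C, which changed places only in the BM1 knockdown library. TAP1, TAP2 and TAPBP followed between 17.3 and 46.4 FPKM, in an order that differed between libraries. NLRC5 and HLA-F were last, at 4.85 to 6.57 and 2.44 to 6.003 FPKM, near the middle of all genes used. Those include genes below the filter on low values, so both stood lower among the tested genes. The 9 genes together held 0.189% and 0.190% of the FPKM sum in BM1 control and knockdown and 0.253% and 0.307% in LM2 control and knockdown.

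**Figure D1:**
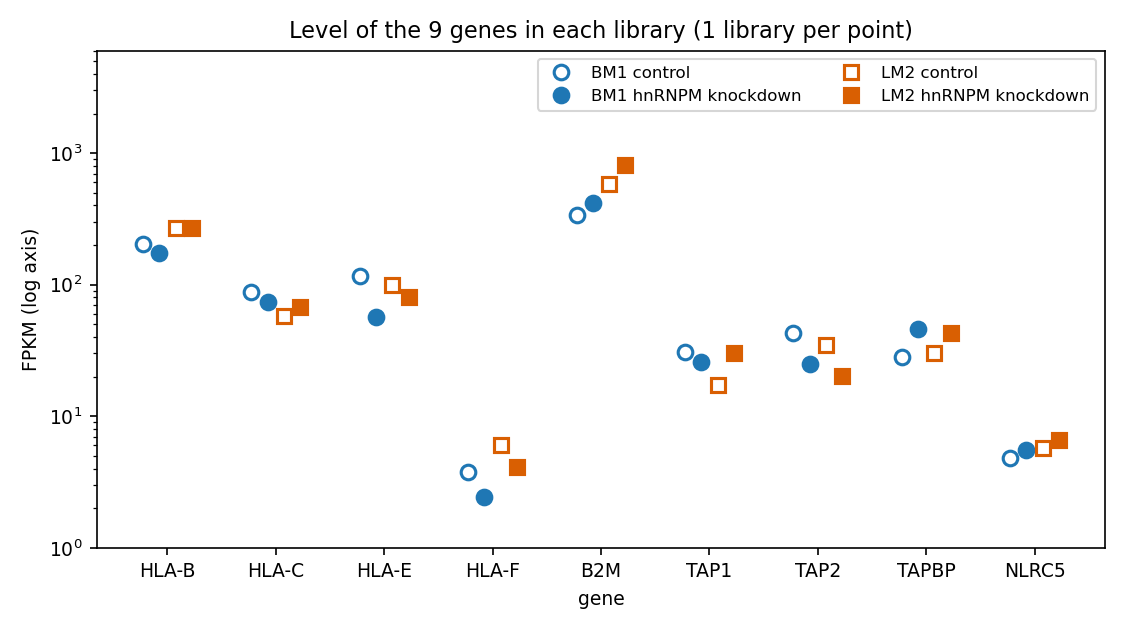
FPKM of the 9 genes (log axis) in the 4 libraries, 1 point per library, open symbols for controls and filled symbols for knockdowns, circles for BM1 and squares for LM2. B2M is the highest gene in each library, between 340 and 819 FPKM, and HLA-F and NLRC5 lie below 7 FPKM throughout.

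The first comparison asked how the class I genes stood after depletion of hnRNPM. The 9 genes did not move as a group: B2M, TAPBP and NLRC5 were higher in the knockdown library of both lines, HLA-E, HLA-F and TAP2 were lower in both, and HLA-B, HLA-C and TAP1 went opposite ways. Of all tested genes, 33% were higher in both lines, 36.2% lower in both and 30.9% opposite, so the split of 3, 3 and 3 is close to the background. In limma, fitted on log2(FPKM + 1) over all genes with terms for line and treatment and adjusted by Benjamini-Hochberg, 0 of the 9 were below an adjusted p of 0.05, where 5.47% of all tested genes were. At an unadjusted p under 0.05 there were 3 of the 9 (HLA-E, TAP2 and TAPBP), against 24.9% of all tested genes. The median difference over the 9 genes was -0.02 on the log2 scale, and -0.01 over all tested genes. How many of all tested genes have both knockdown libraries on the same side of both controls was not counted. Such separation, of treatments or of lines, is named below as a description only. In bulk RNA, fewer cells expressing a gene and less RNA per cell cannot be told apart.

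The transporter genes differed from each other. TAP2 had 43.2 FPKM with the control shRNA against 25.1 with the hnRNPM shRNA in BM1, and 34.5 against 20.3 in LM2. Both knockdown libraries were below both controls, with a difference of -42.1% in BM1 and -41.3% in LM2. The difference of log2(FPKM + 1) was -0.76 in BM1 and -0.74 in LM2, and the average was -0.75 ± 0.25 (log2, SE, 95% interval -1.32 to -0.18, limma unadjusted p 0.0155, adjusted p 0.115). TAP2 thus had the lowest adjusted p of the 9 genes, above the threshold. A listed gene on the same strand, XXbac-BPG246D15.9, covers the whole span of TAP2 and was at 0.202 FPKM or less.

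TAP1, which forms the other chain of the transporter, read 30.7 FPKM (control) against 25.9 (knockdown) in BM1 cells and 17.3 against 30.2 in LM2 cells. The LM2 control library was the low one, and the other 3 lay between 25.9 and 30.7 FPKM. The difference was -0.24 in BM1 and 0.77 in LM2 (average 0.27 ± 0.30, log2, SE, limma adjusted p 0.628). As a ratio within each library, TAP1 over TAP2 was 0.711 and 1.03 in BM1 control and knockdown and 0.501 and 1.49 in LM2. Both knockdown libraries thus had a higher ratio than both controls, while TAP2, the denominator, was itself lower in both knockdowns. The TAP1 gene lies wholly within the span of PSMB9 on the opposite strand, over 8770 bases, and it shares 1287 bases with PSMB8-AS1. Whether counting used the strand is not stated in these sources, and if it did not, reads of these genes cannot be told apart in the shared exons.

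TAPBP measured 28.3 and 46.4 FPKM (control, knockdown) for BM1, against 30.03 and 43.1 for LM2. Both knockdowns were above both controls, 1.64-fold in BM1 and 1.43-fold in LM2. The average difference was 0.60 ± 0.25 (log2, SE, 95% interval 0.03 to 1.17, limma unadjusted p 0.0424, adjusted p 0.184). TAPBP over TAP2 was 0.655 and 1.85 in BM1 control and knockdown and 0.870 and 2.13 in LM2. Tapasin transcripts were thus fewer than TAP2 transcripts, per length, in both controls and more in both knockdowns. This ratio shares its denominator with TAP1 over TAP2, so the 2 ratios are not separate results.

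B2M, the light chain that all class I heavy chains share, had 339.6 FPKM with the control shRNA and 419 with the hnRNPM shRNA in BM1, and 580.3 and 819 in LM2. It was higher in each knockdown than in its own control, 1.23-fold and 1.41-fold, but the LM2 control lay above the BM1 knockdown, so controls and knockdowns overlapped. The average difference was 0.40 ± 0.25 (log2, SE, 95% interval -0.18 to 0.97, limma adjusted p 0.364).

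**Figure D2:**
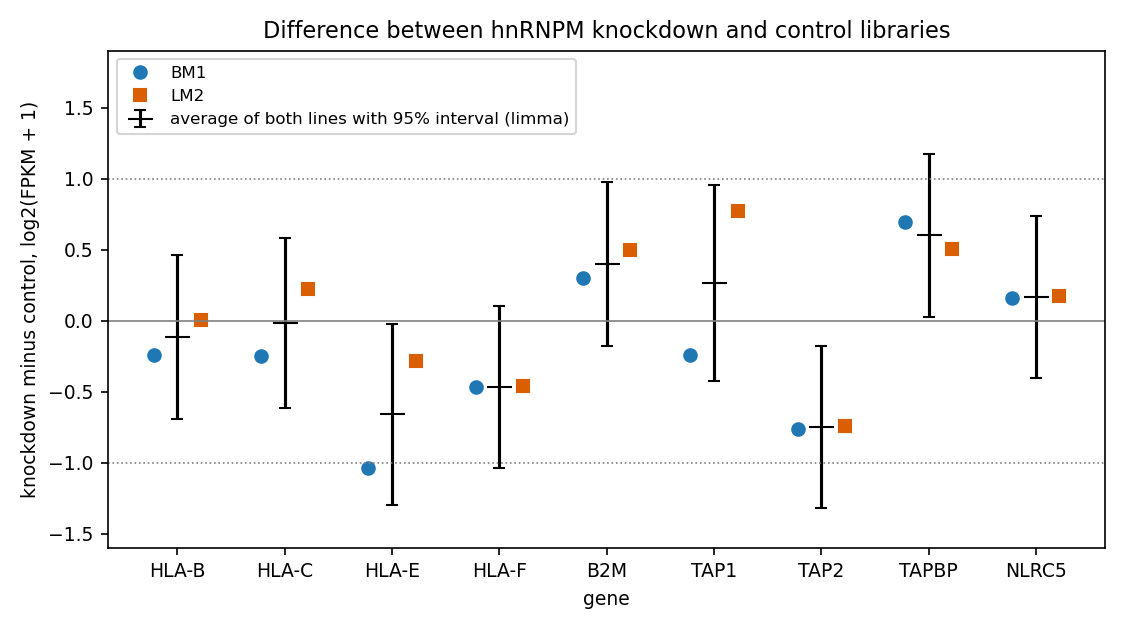
Knockdown minus control of log2(FPKM + 1) for each of the 9 genes, in BM1 (circles) and LM2 (squares), with the limma average over both lines and its 95% interval as a bar. Dotted lines mark a 2-fold difference. The points of TAP2, HLA-F and NLRC5 nearly coincide between lines, and those of TAP1 lie farthest apart, at -0.24 and 0.77.

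Among the heavy chains, HLA-E stood apart in BM1. HLA-E, the non-classical molecule that presents leader peptides of other class I chains to NKG2A receptors, had 117 FPKM with the control shRNA against 56.5 with the hnRNPM shRNA in BM1, and 98.7 against 80.9 in LM2. Both knockdowns were below both controls. The knockdown library had 0.483 times the control level in BM1 and 0.819 times in LM2, a difference of -1.04 and -0.28, with an average of -0.66 ± 0.28 (log2, SE, 95% interval -1.30 to -0.02, limma unadjusted p 0.0442, adjusted p 0.188). In BM1 it was the only 1 of the 9 genes at least 2-fold apart, where 16.3% of all tested genes were, 6.2% in the lower direction. None of the 9 reached 2-fold in LM2, where 8.06% of all tested genes did.

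The classical heavy chains, which present peptides to CD8+ T cells, differed less. HLA-B read 205.5 FPKM (control) against 174 (knockdown) in BM1 cells and 268 against 269.8 in LM2 cells (average difference -0.12 ± 0.25, log2, SE, limma adjusted p 0.812). HLA-C measured 88.7 and 74.3 FPKM (control, knockdown) for BM1, against 58.2 and 68.0 for LM2 (-0.02 ± 0.26, adjusted p 0.978). Both were lower in the BM1 knockdown than in its control by about the same proportion, -15.6% and -16.2%. The 95% intervals of the average, -0.70 to 0.46 for HLA-B and -0.61 to 0.58 for HLA-C, allow differences of either sign, so similar levels are not shown. HLA-B over HLA-C was 2.32 and 2.34 in BM1 control and knockdown and 4.61 and 3.97 in LM2.

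HLA-F, a non-classical chain known to bind natural killer cell receptors as an open form, had 3.76 FPKM with the control shRNA and 2.44 with the hnRNPM shRNA in BM1, and 6.003 and 4.09 in LM2. It was lower in each knockdown than in its control, with differences of -35.2% and -31.9%, while the LM2 knockdown lay above the BM1 control. The average was -0.47 ± 0.25 (log2, SE, 95% interval -1.04 to 0.10, limma adjusted p 0.290). At this level the scale understates a difference, and the value rests on few fragments: 28 to 91 in the BM1 knockdown library, depending on the transcript length assumed, and 123 to 407 in the LM2 control library. HLA-F overlaps HLA-F-AS1, HCG4P11 and RPL23AP1 on the opposite strand. The HLA heavy chain genes are closely similar in sequence. How fragments that match several of them were assigned is likewise not stated, so the split between HLA genes is uncertain.

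The sum of the 4 heavy chain genes came to 415 (control) and 307 FPKM (knockdown) for BM1, against 431 and 423 for LM2. B2M over this sum was 0.818 and 1.37 in BM1 control and knockdown and 1.35 and 1.94 in LM2. The ratio was higher in each knockdown than in its control, and the LM2 control and the BM1 knockdown were nearly equal. HLA class I genes other than these 4 are not part of the sum.

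NLRC5, the transactivator of class I genes, read 4.85 FPKM (control) against 5.52 (knockdown) in BM1 cells and 5.70 against 6.57 in LM2 cells. Its libraries lay closest together of the 9 genes on the log2 scale. The difference was 0.16 in BM1 and 0.18 in LM2 (average 0.17 ± 0.25, log2, SE, 95% interval -0.40 to 0.74, limma adjusted p 0.724). The value rests on 35 to 858 fragments in the BM1 knockdown and 67 to 1614 in the LM2 control library, depending on the transcript length assumed.

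**Figure D3:**
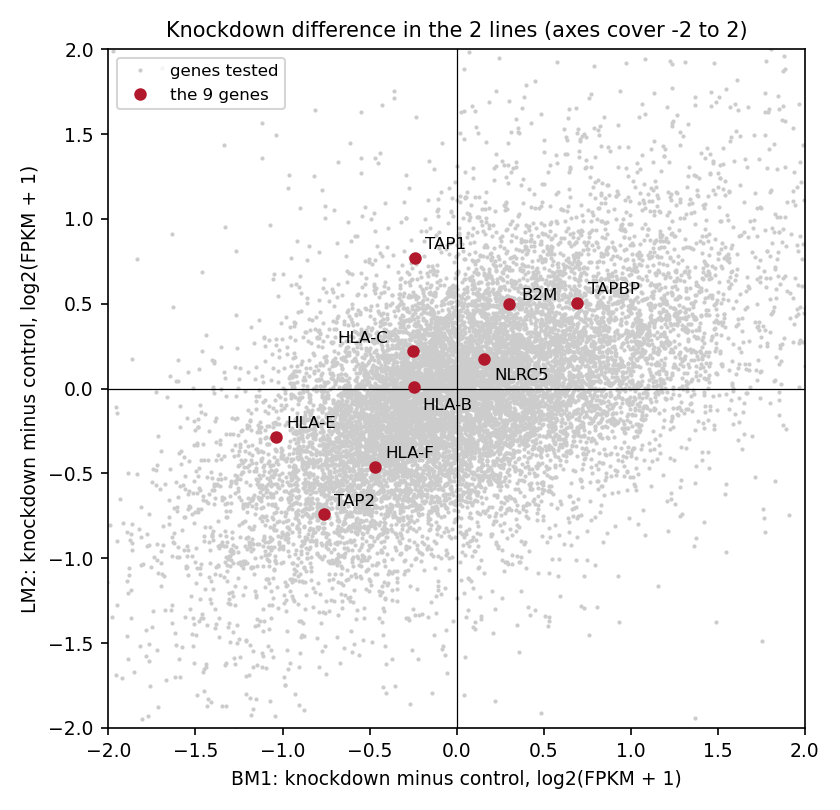
Knockdown minus control of log2(FPKM + 1) in BM1 (horizontal axis) and LM2 (vertical axis), with the 9 genes in red and all tested genes in grey, axes limited to -2 to 2. TAPBP, B2M and NLRC5 lie in the upper right quadrant, HLA-E, HLA-F and TAP2 in the lower left, and TAP1, HLA-C and HLA-B in the upper left.

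The second comparison set LM2 against BM1. B2M had the widest gap of the 9 genes on average over both treatments and between the knockdowns, while TAP1 had a slightly wider one between the controls (-0.79 against 0.77, log2). For B2M, LM2 held 1.71 times the BM1 level in the controls and 1.96 times in the knockdowns, with both LM2 libraries above both BM1 libraries. The average was 0.87 ± 0.25 (log2, SE, 95% interval 0.29 to 1.44, limma unadjusted p 0.00782, adjusted p 0.0916). HLA-B and HLA-F were also higher in LM2 than in BM1 under the same treatment. HLA-B stood at 1.31 times the BM1 level in the controls and 1.55 times in the knockdowns (average 0.51 ± 0.25, adjusted p 0.278), and HLA-F at 1.59 and 1.68 times (0.56 ± 0.25, adjusted p 0.230). Both HLA-B libraries of LM2 lay above both of BM1.

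HLA-C stood the other way from HLA-B. Both LM2 libraries of HLA-C were below both BM1 libraries, with differences of -34.4% in the controls and -8.53% in the knockdowns (average -0.36 ± 0.26, log2, SE, limma adjusted p 0.458). TAP2 was also lower in LM2 under each treatment (-0.30 ± 0.25, adjusted p 0.520), and NLRC5 was higher under each treatment by 0.20 and 0.22 (adjusted p 0.676). HLA-E, TAP1 and TAPBP were on opposite sides in controls and knockdowns. Against the BM1 library of the same treatment, TAP1 stood at -43.7% in the LM2 control and was 16.8% higher in the LM2 knockdown.

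Between lines, limma called 0 of the 9 genes at an adjusted p of 0.05, where 4.35% of all tested genes were called. At an unadjusted p under 0.05 there was 1 of the 9, B2M, against 22.4% of all tested genes. None of the 9 was 2-fold apart between the controls, where 12.2% of tested genes were, or between the knockdowns, where 9.04% were. Higher in LM2 under both treatments were 4 of the 9, lower under both were 2, and opposite were 3, against 32%, 34.5% and 33.5% of all tested genes.

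The other genes of peptide supply were then read from lists. The immunoproteasome, the form of the proteasome that interferon induces, swaps in the subunits PSMB8, PSMB9 and PSMB10 for PSMB5, PSMB6 and PSMB7, and PSME1 and PSME2 form its PA28 cap. Of its 6 listed genes, 5 were lower in both knockdown libraries than in their controls and POMP, the assembly factor, was higher in both. None of the 6 was called by limma, and 2 had an unadjusted p under 0.05, where 5.47% and 24.9% of all tested genes did, and 36.2% of all tested genes were lower in both lines. The list's median difference was -0.43 (log2), -0.72 in BM1 and -0.26 in LM2, against -0.01 over all tested genes.

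PSMB9 measured 32.7 and 13.4 FPKM (control, knockdown) for BM1, against 21.7 and 15.8 for LM2 (-0.83 on average, limma adjusted p 0.121). PSMB8 had 61.0 FPKM with the control shRNA and 38.2 with the hnRNPM shRNA in BM1, and 41.2 and 37.0 in LM2. PSMB10 read 14.1 FPKM (control) against 9.90 (knockdown) in BM1 cells and 25.4 against 19.4 in LM2 cells. Set against its standard counterpart in the same library, each of the 3 was lower in the knockdown. PSMB8 over PSMB5 was 0.593 and 0.572 in the BM1 and LM2 controls and 0.384 and 0.351 in the knockdowns. PSMB9 over PSMB6 was 0.226 and 0.229 in the controls and 0.126 and 0.181 in the knockdowns. PSMB10 over PSMB7 was 0.104 and 0.114 in the controls and 0.0886 and 0.0900 in the knockdowns. In all 3 ratios both knockdown libraries lay below both controls. These ratios were not tested, and the share of other gene pairs that separate in this way was not counted.

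**Figure D4:**
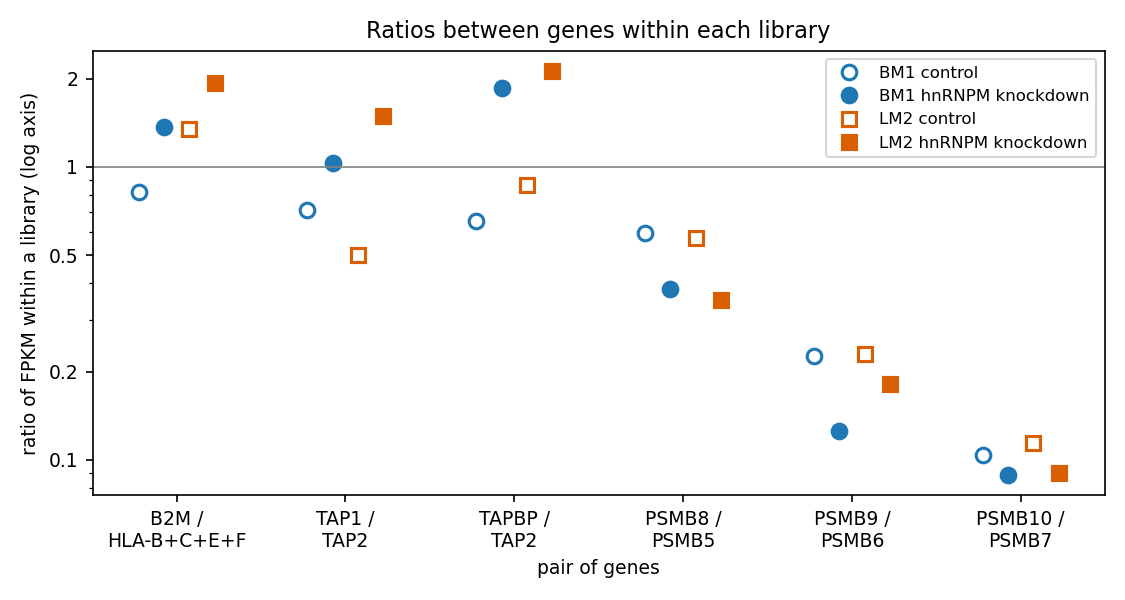
Ratio of FPKM between 2 genes (for B2M, over the sum of HLA-B, HLA-C, HLA-E and HLA-F) within each library, on a log axis, with symbols as in the plot of levels. TAP1 over TAP2 and TAPBP over TAP2 are higher in both knockdowns than in both controls, and the 3 ratios of immunoproteasome to standard subunits are lower in both.

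Of 10 loading complex chaperones and peptide-trimming genes, 0 were called by limma and 1 had an unadjusted p under 0.05 (24.9% of all tested genes), with a median of 0.22 (log2). That gene was SEC61A1, the channel through which proteins enter the endoplasmic reticulum, with 102.8 and 44.2 FPKM (control, knockdown) for BM1 and 62.1 and 39.4 for LM2 (-0.92 ± 0.27, adjusted p 0.0822). SPPL2A, an intramembrane protease, had the next largest average difference, with 8.31 and 12.4 FPKM (control, knockdown) for BM1 and 11.7 and 17.4 for LM2 (adjusted p 0.231).

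Most of the listed regulators were lower in the knockdowns, but the list mixes activators with the repressor EZH2, so this is not 1 regulatory direction. Of 13 tested genes, 9 were lower and 4 higher in both knockdown libraries, and none went opposite ways, against 36.2%, 33% and 30.9% of all tested genes. Limma called 0 of the 13, with 7 at an unadjusted p under 0.05 (24.9% of all tested genes), and the median was -0.45 (log2). RFX5, the DNA-binding chain of the RFX complex, measured 22.9 and 12.04 FPKM (control, knockdown) for BM1, against 26.1 and 15.6 for LM2 (-0.79, adjusted p 0.103). NFKB1 had 15.6 FPKM with the control shRNA and 6.10 with the hnRNPM shRNA in BM1, and 24.3 and 14.6 in LM2 (-0.96, adjusted p 0.0714). IRF1, the interferon-induced activator, read 15.1 FPKM (control) against 8.82 (knockdown) in BM1 cells and 18.8 against 14.5 in LM2 cells (-0.53, limma adjusted p 0.241). The transcripts of these 3 genes were thus lower in each knockdown than in the control of its line.

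The 4 regulators that were higher were NFYB, ATF1, RELA and CREB1. NFYB, a chain of the CCAAT-binding factor, measured 4.80 and 16.3 FPKM (control, knockdown) for BM1, against 5.79 and 9.72 for LM2 (1.12, adjusted p 0.0632). RELA, the partner of NFKB1 in NF-kappaB, had 20.9 FPKM with the control shRNA and 33.8 with the hnRNPM shRNA in BM1, and 25.5 and 48.2 in LM2 (0.78, adjusted p 0.109). The other chains of the CCAAT-binding factor went the other way, NFYA at -0.16 and NFYC at -0.45 (log2, average of both lines). EZH2, a Polycomb methyltransferase known to repress class I genes in some tumours, read 43.2 FPKM (control) against 26.9 (knockdown) in BM1 cells and 42.5 against 27.9 in LM2 cells (adjusted p 0.167).

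Among the lists of the pathway and its regulators, only the interferon-stimulated genes outside antigen presentation held genes called for the knockdown. Limma called 4 of 22 tested genes higher in the knockdowns and 0 lower, where 2.71% and 2.76% of all tested genes were called higher and lower, and the list's median was 0.20 (log2). IFIT1, an antiviral RNA-binding protein, rose from 10.7 FPKM in the BM1 control to 68.6 in its knockdown, and from 6.93 to 32.3 FPKM between the LM2 libraries (2.32 ± 0.26, adjusted p 0.00652). IFIT2 (1.65 ± 0.27, adjusted p 0.0168), IFIT3 (1.51 ± 0.30, adjusted p 0.0296) and OASL (1.60 ± 0.28, adjusted p 0.0206) also rose. These calls and that of HNRNPM held in 2 of 10 alternative fits, a pseudocount of 0.5 and size factors. Without a term for the line, limma called 0 of all tested genes, with 1548 at an unadjusted p under 0.05. Over the whole list, 11 of the 22 were higher in both lines, 5 lower in both and 6 opposite. The 11 include the 4 called genes. Of all tested genes, 33% were higher in both lines, 36.2% lower in both and 30.9% opposite. MX1 was at -1.18 in BM1 and -0.39 in LM2 (adjusted p 0.136), and was named after its values were seen. Between lines, OAS1 (-1.51, adjusted p 0.0149) and IFI27 (-1.29, adjusted p 0.0331) were called lower in LM2, 2 of the 22 where 2.04% of all tested genes were. Of 10 alternative fits, OAS1 was called in 3 and IFI27 in 2.

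The signal pathway above these genes had 0 of 13 tested genes called by limma and 4 at an unadjusted p under 0.05, a share near the 24.9% of all tested genes, with a median of 0.08. IFNGR1, a chain of the interferon-gamma receptor, had 10.5 FPKM with the control shRNA and 32.2 with the hnRNPM shRNA in BM1, and 13.6 and 18.7 in LM2 (0.99, adjusted p 0.101). IRF9, the DNA-binding chain of the complex that type I interferon activates, stood at -0.94 in BM1 and -0.41 in LM2 (adjusted p 0.163). SOCS1, a feedback inhibitor of JAK kinases, was called higher in LM2 than in BM1 (1.36 ± 0.25, adjusted p 0.0220), at 0.688 to 3.44 FPKM, and in 3 of 10 alternative fits. IFNB1 and IFNL1 were not listed in the table. Among listed genes with a RefSeq promoter, an IRF core was found for all 19 interferon-stimulated genes and all 7 class I genes. It was found for 7 of 9 chaperone and trimming genes, 4 of 6 immunoproteasome genes and 5 of 12 interferon pathway genes. For class I related genes it was 4 of 10, for regulators 3 of 11, for class II genes 2 of 9 and for the standard proteasome 0 of 1. Over all RefSeq promoters the share was 22.8%, counted per promoter and not per gene. The genes with this motif thus include ones called higher (IFIT1), ones lower in both knockdowns (TAP2, HLA-F) and ones higher in both (TAPBP, B2M).

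**Figure D5:**
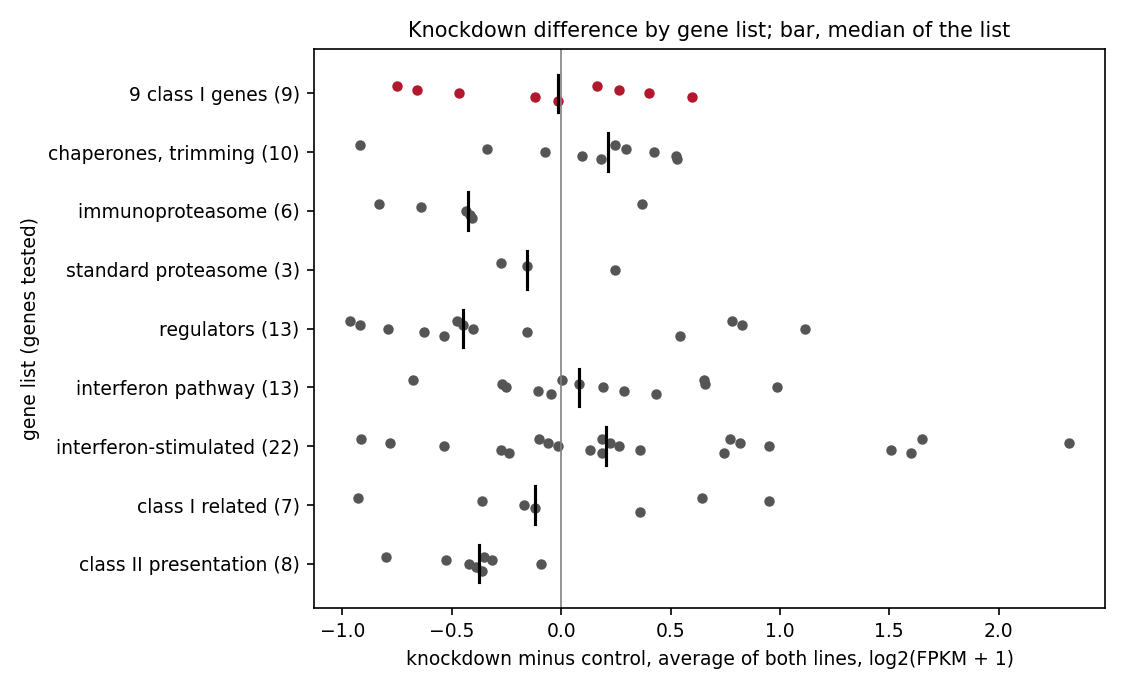
Limma average of knockdown minus control, log2(FPKM + 1), for each tested gene (points) of the class I genes and of 8 other lists, with the median of each list as a black bar. The 9 class I genes lie between -0.75 and 0.60 with a median near 0, and the 4 highest points of the interferon-stimulated list are IFIT1, IFIT2, OASL and IFIT3.

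Class II presentation genes, whose products show peptides from outside the cell, had higher values in LM2 in most genes between the controls but not between the knockdowns. The list's median of LM2 minus BM1 was 1.36 (log2) between the controls and -0.05 between the knockdowns, against 0.08 and 0.22 for the 9 class I genes, and 4 of the 8 tested genes were on opposite sides under the 2 treatments. The difference between the lists was not tested. Limma called 2 of 8 tested genes higher in LM2, where 2.31% of all tested genes were. CD74, the invariant chain, read 23.2 FPKM (control) against 15.9 (knockdown) in BM1 cells and 108 against 50.7 in LM2 cells (LM2 minus BM1 1.89 ± 0.27, adjusted p 0.00765). CTSS, a protease that trims it, was called at low levels, between 0.150 and 2.44 FPKM (1.22 ± 0.25, adjusted p 0.0339). Of 10 alternative fits, CD74 was called in 2 and CTSS in 3, and neither was called without the filter, with quantile normalization, with no treatment term or without any 1 library. CIITA, the class II counterpart of NLRC5, measured 1.76 and 0.220 FPKM (control, knockdown) for BM1, against 3.46 and 1.83 for LM2 (knockdown minus control -0.92, adjusted p 0.0817). In LM2, 5 of the 8 were at least 2-fold lower in the knockdown library, against 4.24% of all tested genes. HLA-DRA was among them, with 28.4 and 10.3 FPKM, while its BM1 libraries had 6.07 and 9.24 FPKM. HLA-DRB1, HLA-DPA1 and HLA-DPB1 were also among them, and were likewise higher in the BM1 knockdown than in its control. In all 5, the LM2 control was the highest library. The gap between the controls and the LM2 knockdown difference both draw on that 1 library, so they are not separate results. None of the 8 was called for the knockdown, with 1 at an unadjusted p under 0.05, against 24.9% of all tested genes.

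Class I related surface molecules had 0 of 7 tested genes called by limma in the knockdown comparison and 3 at an unadjusted p under 0.05, where 5.47% and 24.9% of all tested genes were. MICA, a stress ligand of the NKG2D receptor, had 51.2 FPKM with the control shRNA and 73.1 with the hnRNPM shRNA in BM1, and 22.9 and 61.7 in LM2 (0.95 ± 0.29, adjusted p 0.0952). FCGRT, which encodes the heavy chain of the neonatal Fc receptor and pairs with B2M, read 10.4 FPKM (control) against 3.78 (knockdown) in BM1 cells and 4.50 against 2.62 in LM2 cells (-0.93 ± 0.27, adjusted p 0.0849).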

How the data were processed

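The authors deposited 1 table of FPKM values with 1 column per library. STAR 2.5.3a, Cuffdiff 2.2.1 and GRCh37 are named in the submitters' processing notes. The annotation release, the handling of fragments with several matches and any use of strand are not stated there. Of 20369 entries, 40 that repeat 3 gene IDs were left out.

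Genes averaging 1 FPKM or more were analysed as log2(FPKM + 1), on which changes of low genes are understated. One limma fit (3.58.1, R 4.3.3) had terms for cell line and treatment, with 1 residual degree of freedom per gene. Empirical Bayes drew each gene's variance towards a value shared by all tested genes, which gave 8.70 degrees of freedom in total. Standard errors and intervals thus reflect mostly this shared variance. Two-sided p-values were adjusted over 13928 genes (Benjamini-Hochberg, threshold 0.05). The script was tested on simulated data. Knockdown and control libraries were paired by the cell line they share. Differences between single libraries have no replicate check and were read against a 2-fold rule. A call in this fit nearly requires the same direction in both lines.

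Depth was inferred from whole multiples of a step (within 0.02) in FPKM times transcript length for 1623 genes. Of the values within the range used (largest multiple 10), 36.1% to 43.8% came out whole, too few for a test on counts. Transcript lengths came from GENCODE and may differ from those the submitters used. No interval for counting error is given. Promoters came from RefSeq GRCh38.p14 by gene symbol, and coordinates of the 2 builds were not mixed.

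The members and lists were chosen with earlier results of these data known. Named are the 9 genes, HNRNPM, the called genes of each list or its 2 largest differences, and any immunoproteasome or regulator gene; POMP, PSMB9, RFX5 and their like fall under the last clause. Other genes named were chosen after their values were seen.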

Additional observations from a re-analysis of the deposited data

Results flagged for a closer look

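Several of the genes had differences of opposite sign in the 2 lines or under the 2 treatments. The change in LM2 minus the change in BM1 was 1.01 (log2) for TAP1, which was opposite both between lines and between treatments, and 10.3% of tested genes had a difference at least as large in size. HLA-E, opposite between treatments in the line comparison, had 0.75, a size that 20.3% of tested genes reached. HLA-C (0.47) and HLA-B (0.25) were opposite between lines in the knockdown comparison, and TAPBP (-0.19) between treatments in the line comparison. At least 39.9% of tested genes reached the size of these 3. With 4 libraries no degree of freedom is left for an interaction term, so none of these differences was tested.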

How the results depend on the processing

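None of the 9 genes was called in either comparison under any alternative: pseudocounts of 0.1 and 0.5, no filter, size factors, quantile normalization, no replicate block (for the lines, no treatment term), or leaving out each library in turn, which also drops the pairing. Direction was the same in 83 of 90 such fits for the knockdown and in 81 of 90 for the lines. These counts include the fits without the filter and without the block or treatment term. Those return the main difference unchanged, so their direction could not differ. The genes called for the knockdown numbered 762, and 27 with a pseudocount of 0.1, 0 without the filter, 0 with quantile normalization, 0 with no replicate block and 0 to 0 without 1 library (limma unadjusted p under 0.05: 3735, 3255, 1548 and 860 to 1943 in the settings with 0), so the IFIT, OASL and HNRNPM calls are lost there. They are also lost with a pseudocount of 0.1. The genes called between lines numbered 606, and in the same order 216, 0 (3634 unadjusted), 104, 11 and 6 to 28. The CD74, CTSS, OAS1, IFI27 and SOCS1 calls held with a pseudocount of 0.5 and size factors and, for CTSS, OAS1 and SOCS1, with a pseudocount of 0.1, and ended in the other settings. The cause was not tested. With quantile normalization the knockdown difference of HLA-C reversed (0.054) and so did the line difference of TAPBP (0.026, and 0.0071 with size factors). A fit without 1 library has no term for the other factor. Part of the line difference thus enters its knockdown difference, and part of the knockdown difference enters its line difference. Leaving out 1 library, the knockdown difference ranged from -0.43 to 0.20 for HLA-B (reversed without the BM1 knockdown or the LM2 control), from -0.32 to 0.28 for HLA-C (without the BM1 control or LM2 knockdown), from -0.083 to 0.88 for B2M (without the LM2 knockdown) and from -0.13 to 0.66 for TAP1 (without the LM2 control). Without reversing, it ranged from -0.75 to -0.18 for HLA-F, from -0.92 to -0.41 for HLA-E and from 0.058 to 0.27 for NLRC5. The line difference ranged, without reversing, from 0.33 to 0.80 for HLA-F, from -0.49 to -0.24 for HLA-C and from 0.12 to 0.29 for NLRC5. It ranged from -0.38 to 0.65 for HLA-E and from -0.36 to 0.33 for TAPBP (both reversed without the BM1 knockdown or the LM2 control), from -0.67 to 0.097 for TAP1 (without the LM2 control) and from -0.69 to 0.077 for TAP2 (without the BM1 control or LM2 knockdown). Under a 1.5-fold rule, 3 genes in BM1 (HLA-E, TAP2, TAPBP) and 2 in LM2 (TAP1, TAP2) passed for the knockdown, as did 3 between controls and 2 between knockdowns. HLA-E in BM1 was under 2-fold with quantile normalization, which left 0 genes, and B2M between knockdowns passed 2-fold with size factors, giving 1. Depth limits HLA-F and NLRC5 most.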

Other observations

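The genes most like the 9 in their profile were found by Euclidean distance between centred log2(FPKM + 1) profiles over the 4 libraries. To the median profile of the 9, the nearest genes were CANT1 and MLF2 (0.06 each), then STK11 and TOPORS-AS1 (0.06 each) and MTHFD2 (0.07). The 9 genes themselves lay farther from their own median, from 0.19 for HLA-B to 0.92 for TAP2. To NLRC5, the nearest were PIH1D2, RUBCN and ENGASE (0.03 each), and the nearest of the other class I genes was HLA-B at 0.43. With 4 libraries many profiles are alike, and these distances are a description.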
